A study of Mus musculus with 8 samples.

Results

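The 8 genes described here encode the cyclins and kinases that carry a cell through G1: the D cyclins Ccnd1, Ccnd2 and Ccnd3, the E cyclins Ccne1 and Ccne2, and the kinases Cdk4, Cdk6 and Cdk2. They were taken by gene symbol from a table of read counts for 23358 genes, and all 8 were found and passed the filter on low counts, among 14086 genes tested. The libraries are RNA-seq of mouse hematopoietic stem cells, the rare source of all blood lineages, which were taken straight from bone marrow into Trizol after a sort for Lin-Sca+Kit+CD48-CD150+ cells, uncultured and with no treatment stated. The wild type had 3 libraries, the line labelled as a Mx1-Cre knockout of Huwe1 had 3, and the line labelled as a Vav-Cre knockout had 2. Huwe1 is a ubiquitin ligase gene of the HECT class. Mx1-Cre is induced through interferon signalling and acts in many cell types besides blood cells, while Vav-Cre is active in blood cells from development onward. The labels give neither the mice's age, sex or strain, nor an inducing agent, nor a Cre line for the wild type, and do not say whether each library is a separate animal. The p-values therefore measure the spread between these libraries, which may be technical.

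D cyclins are made in response to growth signals and activate CDK4 and CDK6, which begin the phosphorylation of the retinoblastoma protein RB. E cyclins activate CDK2, which completes that phosphorylation, releases E2F transcription factors and starts DNA replication. E2F factors in turn drive the E cyclin genes and the replication genes, and CDK inhibitors of the INK4 and CIP/KIP families hold the kinases back. Hematopoietic stem cells are mostly quiescent, and CDK6 is known as a kinase whose level helps set how readily they leave quiescence.

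Promoter sequences are shown for the kinases. The level of Cdk6 varied between libraries while those of Cdk4 and Cdk2 varied little, and the part of the promoters in this was not tested. Each run is the 250 bases before the transcript start, 5′ to 3′ on the gene's strand, from RefSeq (GRCm38.p6), at chr10:127063285-127063534 (+) for Cdk4, chr5:3343643-3343892 (+) for Cdk6 and chr10:128705052-128705301 (-) for Cdk2. Capitals mark an E-box, CACGTG, the site read by MYC-type factors, in Cdk4 and Cdk6, and an E2F motif in Cdk2.
Cdk4: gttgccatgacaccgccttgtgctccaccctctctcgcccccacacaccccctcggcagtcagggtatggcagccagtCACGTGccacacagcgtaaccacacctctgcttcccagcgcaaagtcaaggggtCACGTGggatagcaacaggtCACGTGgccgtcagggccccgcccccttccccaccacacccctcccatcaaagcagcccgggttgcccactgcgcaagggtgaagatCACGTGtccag
Cdk6: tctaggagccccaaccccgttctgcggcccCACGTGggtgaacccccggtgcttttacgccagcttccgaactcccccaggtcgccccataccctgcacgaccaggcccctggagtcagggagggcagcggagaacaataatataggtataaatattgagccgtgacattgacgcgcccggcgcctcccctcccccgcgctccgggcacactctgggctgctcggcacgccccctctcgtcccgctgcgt
Cdk2: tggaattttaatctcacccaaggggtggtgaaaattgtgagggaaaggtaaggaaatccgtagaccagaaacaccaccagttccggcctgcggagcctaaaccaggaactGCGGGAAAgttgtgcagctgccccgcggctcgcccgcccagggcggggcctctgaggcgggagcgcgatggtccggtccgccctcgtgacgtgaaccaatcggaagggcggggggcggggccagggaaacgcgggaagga
The Cdk4 run holds 4 E-boxes, starting 172, 118, 98 and 11 bases before the transcript start. At least 1 E-box occurs in 6.02% of 32851 mouse promoters of that length, and 4 or more occur in 7 of them. The Cdk6 run holds 1 E-box, 220 bases before the start. That run lies within the Cdk6 gene of GENCODE M21, used below for exon lengths, whose first base is chr5:3341485. The E2F search took TTTCCCGC, TTTGGCGC, TTTCGCGC and TTTGCCGC on both strands, which do not overlap the E-box letters, and 1.86% of promoters hold a match. Cdk2 has 1 match, 140 bases before its start, where the run shows the opposite strand of the motif. Neither motif was found in this window of Ccne1 or at either of the Ccnd3 starts. Promoters of 5 of the 8 genes were matched. Ccnd1, Ccnd2 and Ccne2 are named only. A match is a stretch of letters and was not measured as a bound site.

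Total counts were 28689765 to 33202926 per library, and the 8 genes together took 0.181 to 0.210% of them. Levels below are CPM, counts relative to the library total, after TMM scaling, a correction for composition differences between libraries. Huwe1 itself was at 434, 398 and 433 CPM in wild type, 444, 399 and 412 CPM in Mx1-Cre and 445 and 490 CPM in Vav-Cre libraries. A count over the whole gene does not check a deletion of some exons, so the knockout is as labelled. The stem cell markers summed to 5139 to 6147 CPM in the wild type, 3721 to 6261 CPM in Mx1-Cre and 5428 to 5554 CPM in Vav-Cre libraries. Among markers of other blood cells, the 8 erythroid genes summed to 92.3 to 184 CPM in the wild type, 123 to 268 CPM in Mx1-Cre and 20.6 and 50.7 CPM in Vav-Cre libraries, with Hbb-b1 and Hba-a1 at 0 in all of them. The summed level of 13 myeloid markers was lower in every knockout library (166 to 707 CPM) than in wild type (1009 to 1507 CPM). In wild type, Mx1-Cre and Vav-Cre libraries, 10 lymphoid markers summed to 23.6 to 41.6, 33.1 to 63.3 and 24.1 to 28.4 CPM. In the same order, 7 megakaryocyte markers summed to 710 to 902, 533 to 779 and 340 to 617 CPM. For 8 stroma and endothelium markers the sums were 127 to 160, 57.1 to 80.9 and 96.4 to 99.7 CPM. Vav-Cre 2 stood apart. Its mast cell and basophil markers summed to 241 CPM against 10.4 to 41.2 CPM in the other libraries. Of that sum 209 CPM came from Fcer1a, while Mcpt8 had 2 counts. Its summed levels of replication and of mitotic genes, given below, were the lowest, though not the level of each such gene. The part of these differences in the results was not tested, and results that rest on Vav-Cre 2 are given with and without it. In bulk RNA, fewer cells of a type and less RNA per cell cannot be told apart.

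Per kilobase of exon, the wild type cells had Cdk4 as the most abundant of the 8 transcripts and Cdk6 as the least. Cdk4 was at 293 ± 24.1 CPM per kb (SD, n = 3), followed by Ccnd2 at 141 ± 17.2, Cdk2 at 61.5 ± 6.41 and Ccnd3 at 26.2 ± 2.37 CPM per kb. Ccnd1 was at 10.3 ± 0.329, Ccne2 at 6.50 ± 0.957, Ccne1 at 5.61 ± 1.19 and Cdk6 at 3.63 ± 0.334 CPM per kb. The only neighbours in that order whose wild type libraries overlapped were Ccne2 and Ccne1. Exon lengths came from GENCODE M21 on GRCm38 and the counts from mm9, so these levels are approximate. Both ends of the order depend on the division by length. In CPM alone, wild type Ccnd2 (mean 950) was above Cdk4 (601). Cdk6 (41.9), whose exons span 11525 bases, was above Ccnd1 (38.6), Ccne2 (20.8) and Ccne1 (11.2).

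The first 4 places were the same in all 3 groups. In the Mx1-Cre libraries the 4 lower genes ran from Ccnd1 (10.6 ± 2.65 CPM per kb, n = 3) through Ccne2 and Ccne1 to Cdk6 (6.24 ± 1.99 CPM per kb), and each overlapped the next. In the Vav-Cre libraries Cdk6 (6.48 ± 3.58 CPM per kb, n = 2) came above Ccne1 (6.11 ± 1.98) and Ccne2 (5.54 ± 3.20), again with overlap. Cyclin D in these cells was thus mostly Ccnd2 transcript, which made up 77.6 to 82.6% of the D cyclin level per kb in the wild type, 71.6 to 82.2% in Mx1-Cre and 72.4 to 78.9% in Vav-Cre libraries. Among the kinases Cdk4 made up 75.8 to 82.1% over the 8 libraries.

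**Figure D1:**
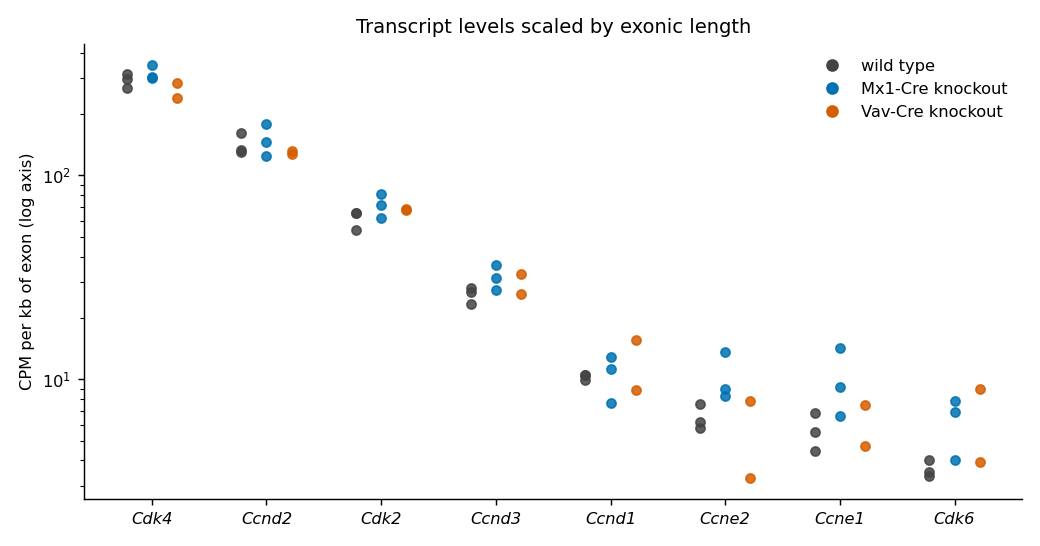
Level of each gene in CPM per kilobase of exon (log axis) in each library, by group. Cdk4 and Ccnd2 lie highest in every group, and the lower 4 genes overlap in the knockout libraries.

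Against wild type, 0 of the 8 genes passed edgeR's quasi-likelihood test at an adjusted p of 0.05 with both lines averaged, where 2.65% of all tested genes did. The count was also 0 for Mx1-Cre (background 2.49%), for Vav-Cre (0.511%) and for Vav-Cre against Mx1-Cre (0.17%). At an unadjusted p below 0.05, 1, 2, 1 and 1 of the 8 passed in those comparisons, against backgrounds of 16.5, 16.6, 13.4 and 13.3%. They were Cdk6 in each comparison with wild type, Ccne1 also in Mx1-Cre, and Ccne2 between the lines. DESeq2 called 1 of the 8, Cdk6 with both lines averaged (adjusted p = 0.0470), where it called 953 of all 14086 genes. It called none of the 8 in the other 3 comparisons, where it called 1042, 599 and 468 of all genes. With limma-trend 0 of the 8 passed in all 4, beside 506, 504, 154 and 27 of all genes. The log2 fold change was positive for 8 of 8 genes in Mx1-Cre, where 51.3% of all genes were positive, but with library totals as the only scaling Ccnd1 (-0.042) and Ccnd2 (-0.0013) turned negative, and with upper quartile scaling Ccnd1 did (-0.013). It was positive for 5 of 8 in Vav-Cre (49% of all genes). The median of the 8 was 0.25 in Mx1-Cre and 0.14 in Vav-Cre, beside 0.01 and -0.01 over all genes. Both lines were set against the same wild type libraries.

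**Figure D2:**
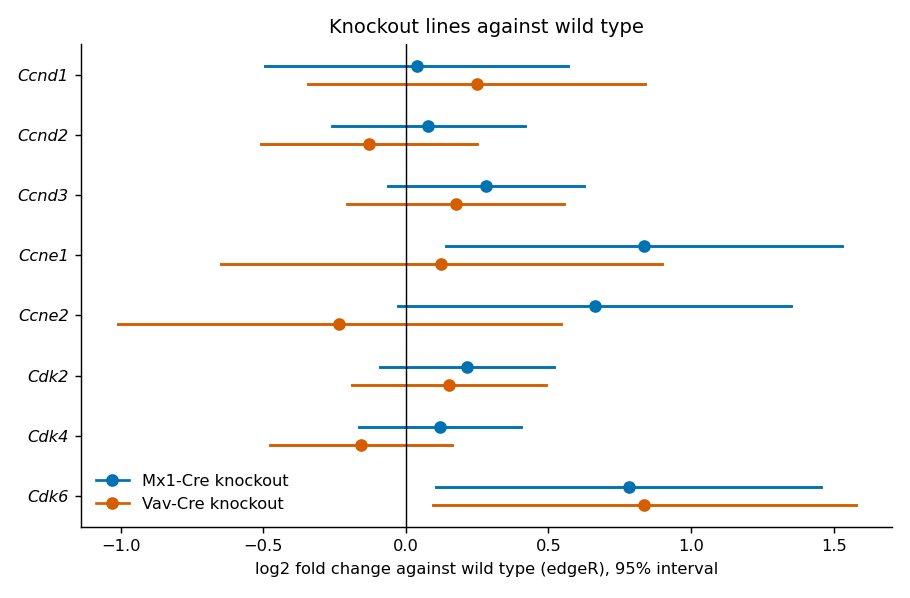
Log2 fold change of each gene against wild type with its 95% interval, for Mx1-Cre and Vav-Cre knockout. The Cdk6 interval lies above 0 in both lines and that of Ccne1 in Mx1-Cre, before adjustment over all genes.

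Among the D cyclins, Ccnd2, the main D cyclin of these cells, was at 1082, 896 and 871 CPM in wild type, at 977, 1201 and 832 CPM in Mx1-Cre and at 884 and 851 CPM in Vav-Cre libraries. The 3 groups overlapped, with both the highest and the lowest value in Mx1-Cre. Its log2 fold change was 0.08 ± 0.15 (SE) in Mx1-Cre (edgeR adjusted p = 0.853) and -0.13 ± 0.17 in Vav-Cre (adjusted p = 0.815). The sign with both lines averaged was decided by single libraries: it was -0.03, and 0.079 without wild type 1 or 0.03 without Mx1-Cre 3. In Mx1-Cre alone it was -0.059 without Mx1-Cre 2.

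Ccnd3, which pairs with the same kinases and is prominent in lymphoid and erythroid cells, was at 57.5, 68.6 and 66.0 CPM in wild type, 77.0, 67.4 and 89.0 CPM in Mx1-Cre and 64.5 and 80.1 CPM in Vav-Cre libraries. Its 3 highest libraries were knockouts (Mx1-Cre 3, Vav-Cre 2 and Mx1-Cre 1), and the other 2 knockout libraries lay within the wild type range. Its log2 fold change was 0.28 ± 0.15 in Mx1-Cre (adjusted p = 0.405) and 0.17 ± 0.17 in Vav-Cre (adjusted p = 0.734), the latter 0.01 without Vav-Cre 2.

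Ccnd1 was steady in wild type and scattered in the knockouts. It was at 39.2, 37.2 and 39.5 CPM in wild type, 28.7, 42.2 and 48.0 CPM in Mx1-Cre and 33.1 and 58.6 CPM in Vav-Cre libraries, so that the knockout libraries lay on both sides of the wild type ones. Its log2 fold change was 0.04 ± 0.24 in Mx1-Cre (adjusted p = 0.957) and -0.12 without Mx1-Cre 3. In Vav-Cre it was 0.25 ± 0.27 (adjusted p = 0.759) and -0.22 without Vav-Cre 2.

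The ratios between D cyclins overlapped between the groups, and are given without a test. The log2 ratio of Ccnd2 to Ccnd3 counts averaged 3.89 ± 0.30 over wild type (SD, n = 3), 3.68 ± 0.47 over Mx1-Cre (n = 3) and 3.59 ± 0.26 over Vav-Cre libraries (n = 2). That of Ccnd1 to Ccnd2 was -4.61 ± 0.16, -4.68 ± 0.50 and -4.30 ± 0.62.

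**Figure D3:**
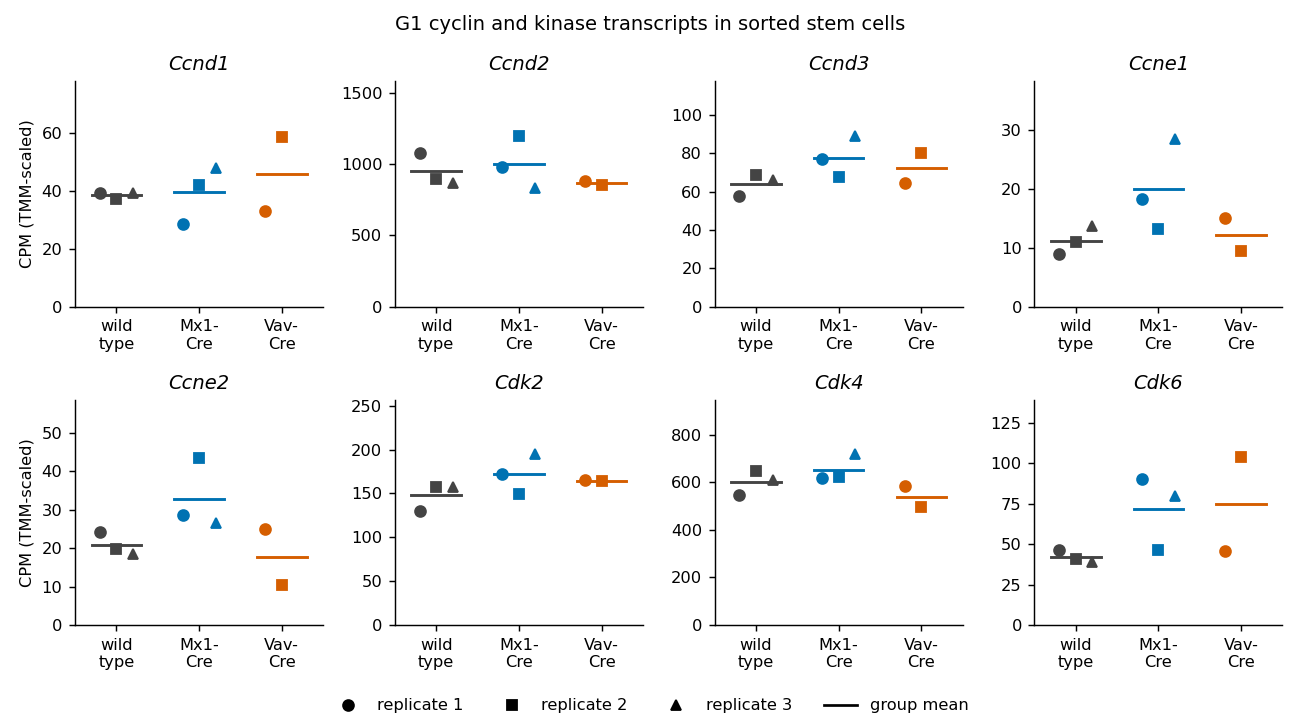
TMM-scaled CPM of each of the 8 genes in every library, by group, with a line at each group mean and the marker shape giving the replicate number. Cdk6 lies at 79.4 to 104 CPM in 3 knockout libraries and at 38.8 to 46.3 CPM in the other 5 libraries.

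The E cyclins were low and varied more between libraries than most genes. Over the 8 libraries the SD of log2 CPM was 0.54 for Ccne1 and 0.59 for Ccne2, above that of 93.8 and 95.2% of 9584 genes with a mean log2 CPM of at least 3, whose median was 0.24. The highest library exceeded the lowest 3.19-fold for Ccne1 and 4.16-fold for Ccne2. Both encode activators of CDK2 and are E2F targets.

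Ccne1 was at 8.95, 11.0 and 13.7 CPM in wild type, 18.3, 13.2 and 28.6 CPM in Mx1-Cre and 15.03 and 9.42 CPM in Vav-Cre libraries. All 3 Mx1-Cre libraries were above the wild type mean of 11.2 CPM, although Mx1-Cre 2 lay below the highest wild type library. The log2 fold change in Mx1-Cre was 0.84 ± 0.31 (95% interval 0.14 to 1.53), with an edgeR adjusted p = 0.209. Without Mx1-Cre 3, the highest library, and in every other setting it stayed positive (0.49 to 1.078) and was not called. In Vav-Cre it was 0.12 ± 0.35 (adjusted p = 0.929), -0.25 without Vav-Cre 1 and 0.42 without Vav-Cre 2.

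Ccne2 was at 24.3, 19.8 and 18.4 CPM in wild type, 28.7, 43.5 and 26.5 CPM in Mx1-Cre and 24.98 and 10.5 CPM in Vav-Cre libraries. All Mx1-Cre libraries were above all wild type libraries, and Vav-Cre 2 was the lowest of all 8. Genes whose Mx1-Cre libraries lay wholly above wild type made up 10.9% of those tested, and among the 8 genes they were Ccne2 and, by a margin of 46.3 against 46.2 CPM, Cdk6. Scaled by library total alone, Cdk6 overlapped (44.4 CPM in Mx1-Cre 2 against 47.3 CPM in wild type 1). The Ccne2 log2 fold change was 0.66 ± 0.31 (-0.03 to 1.35) in Mx1-Cre (adjusted p = 0.323) and -0.23 ± 0.35 in Vav-Cre (adjusted p = 0.840), the latter 0.26 without Vav-Cre 2.

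The widest gap between the lines was in Ccne2. Vav-Cre minus Mx1-Cre was -0.89 ± 0.36 (-1.68 to -0.10), with an edgeR adjusted p = 0.321, and both Vav-Cre libraries lay below all 3 Mx1-Cre ones. This gap rested on Vav-Cre 2: without it the difference was -0.40, and without Vav-Cre 1 it was -1.65 and passed (adjusted p = 0.0424), with 1 Vav-Cre library assumed to vary like the other groups. For Ccne1 the difference was -0.71 ± 0.36 (adjusted p = 0.422). The log2 ratio of Ccne1 to Ccne2 counts was -0.90 ± 0.51 (SD, n = 3), -0.75 ± 0.92 (n = 3) and -0.44 ± 0.41 (n = 2) in wild type, Mx1-Cre and Vav-Cre libraries, with overlap. Per kb, Ccne1 made up 37.1 to 54.3% of the E cyclin level in the wild type, 32.6 to 63.3% in Mx1-Cre and 49.0 to 59.0% in Vav-Cre libraries, so which of the E cyclins was the greater varied by library.

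The kinases differed in how much they varied. Cdk4 and Cdk2 were among the steadier genes, with an SD of log2 CPM over 8 libraries of 0.16 and 0.17, above that of 17.2 and 18.9% of genes. Cdk6 was among the more variable, with an SD of 0.57, above that of 94.6% of genes.

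Cdk6 was at 46.2, 40.7 and 38.8 CPM in wild type, 90.2, 46.3 and 79.4 CPM in Mx1-Cre and 45.5 and 104 CPM in Vav-Cre libraries. Mx1-Cre 1, Mx1-Cre 3 and Vav-Cre 2 were high, while Mx1-Cre 2 and Vav-Cre 1 were at the upper end of wild type. All 5 knockout libraries were above the wild type mean of 41.9 CPM. With both lines averaged the log2 fold change was 0.81 ± 0.28 (0.19 to 1.43), a 1.75-fold higher level, with an edgeR adjusted p = 0.180, so it did not pass.

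Cdk6 gave similar values in each line, 0.78 ± 0.30 in Mx1-Cre (adjusted p = 0.228) and 0.84 ± 0.33 in Vav-Cre (adjusted p = 0.307), and the difference between the lines was 0.05 ± 0.34 (-0.69 to 0.80). The Vav-Cre value rested on 1 library, since it was 0.12 without Vav-Cre 2 and 1.31 without Vav-Cre 1. With both lines averaged the value stayed positive in all 16 other settings, from 0.45 without Vav-Cre 2 to 1.05 without Vav-Cre 1. It passed in 2 of them, with DESeq2 (adjusted p = 0.0470) and without Vav-Cre 1 (adjusted p = 0.0466).

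The mast cell and basophil markers summed to 14.3, 10.4 and 11.0 CPM in wild type 1, 2 and 3. They summed to 24.8, 41.2 and 26.7 CPM in Mx1-Cre 1, 2 and 3 and to 16.5 and 241 CPM in Vav-Cre 1 and 2. Of these sums, Fcer1a made up 209 CPM in Vav-Cre 2 and 7.01 to 14.9 CPM in the Mx1-Cre libraries. Rn45s, a ribosomal RNA precursor gene that was among the most abundant in these libraries, was at 7377, 8805 and 18209 CPM in wild type 1, 2 and 3, at 9973, 4855 and 19982 CPM in Mx1-Cre 1, 2 and 3, and at 13260 and 18703 CPM in Vav-Cre 1 and 2. The part of these markers and of Rn45s in the Cdk6 values was not tested.

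Cdk4 was at 548, 646 and 608 CPM in wild type, 618, 622 and 717 CPM in Mx1-Cre and 585 and 494 CPM in Vav-Cre libraries. Its log2 fold change was 0.12 ± 0.13 in Mx1-Cre (adjusted p = 0.714) and -0.16 ± 0.14 in Vav-Cre (adjusted p = 0.710). Mx1-Cre 3 lay above the wild type range and Vav-Cre 2 below it, and both Vav-Cre libraries were below all Mx1-Cre ones, as for Ccne2 and for 12% of all genes. With both lines averaged it was -0.02 ± 0.12 (adjusted p = 0.964) and turned to 0.04 without wild type 2 or Vav-Cre 2.

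Cdk2 was at 130, 157 and 158 CPM in wild type, 173, 150 and 194 CPM in Mx1-Cre and 165 and 164 CPM in Vav-Cre libraries. Its log2 fold change was 0.22 ± 0.14 in Mx1-Cre (adjusted p = 0.486) and 0.15 ± 0.15 in Vav-Cre (adjusted p = 0.747). Both Vav-Cre libraries lay above all wild type ones, as did those of 15.6% of all genes, and Cdk2 was the only one of the 8 genes of which this held.

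The balance of the Cdk4 and Cdk6 transcripts differed between libraries of the same knockout line. Cdk4 counts were 11.9, 15.9 and 15.7 times those of Cdk6 in wild type, 6.84, 13.4 and 9.03 times in Mx1-Cre and 12.8 and 4.75 times in Vav-Cre libraries. As log2 count ratios these were 3.84 ± 0.24 (SD, n = 3), 3.23 ± 0.49 (n = 3) and 2.96 ± 1.01 (n = 2). Per kb Cdk6 made up 0.921 to 1.23% of the kinase level in the wild type, 1.09 to 2.06% in Mx1-Cre and 1.11 to 2.84% in Vav-Cre libraries, so that the lowest knockout shares lay within the wild type range.

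**Figure D4:**
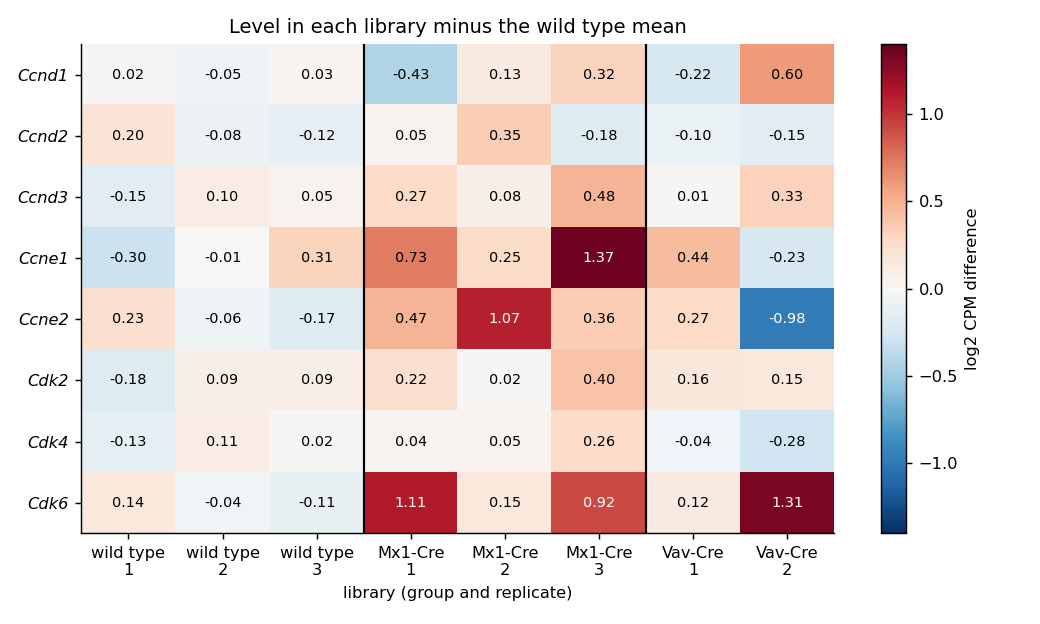
Log2 CPM of each gene in each library minus the wild type mean, as a colour scale. Cdk6 reaches 1.11 in Mx1-Cre 1, 0.92 in Mx1-Cre 3 and 1.31 in Vav-Cre 2, and Ccne2 ranges from 1.07 in Mx1-Cre 2 to -0.98 in Vav-Cre 2.

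The genes did not vary as 1 block. Pearson's r of log2 CPM was taken over the 8 libraries of all groups, so differences in group and library depth can enter it. The value was 0.88 between Ccnd3 and Cdk2, 0.83 between Ccne1 and Cdk2 and 0.79 between Ccnd3 and Cdk6. It was 0.42 between Ccne1 and Ccne2 and -0.19 between Cdk4 and Cdk6. Among 9576 other genes, the pattern most like that of Cdk6 was that of Tap1, a peptide transporter of antigen presentation (r = 0.985), at 143, 116 and 121 CPM in wild type, 235, 147 and 193 CPM in Mx1-Cre and 139 and 265 CPM in Vav-Cre libraries. The pattern most like that of Ccne2 was that of Ercc6l, a helicase of mitotic chromosomes (r = 0.990), and that most like Cdk4 was Grpel1, a mitochondrial import factor (r = 0.996). For the others these were Sfpi1 for Ccnd1 (r = 0.904), Supt5 for Ccnd2 (0.984), Map3k11 for Ccnd3 (0.966), Rfc5 for Ccne1 (0.964) and Ubtf for Cdk2 (0.983). Each is the highest of many values over 8 libraries and is given as a description.

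Of the genes that act on these kinases, the CDK inhibitors held the only called genes. Of 7, 5 were tested, since Cdkn2a and Cdkn2b had at most 2 counts in any library. In Mx1-Cre, Cdkn1a rose and Cdkn1c fell, and the other 3, Cdkn1b, Cdkn2c and Cdkn2d, did not pass, so that 2 of 5 were called beside 2.49% of all genes. In Vav-Cre 0 of the 5 passed with edgeR, beside 0.511% of all genes, and 2 had an unadjusted p below 0.05, beside 13.4%. DESeq2 called 1 of the 5, Cdkn2c, beside 599 of all 14086 genes.

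Cdkn1a, which encodes the CIP/KIP inhibitor p21, was at 3.17, 1.84 and 3.39 CPM in wild type, 9.57, 6.35 and 21.5 CPM in Mx1-Cre and 6.55 and 7.50 CPM in Vav-Cre libraries. All knockout libraries were above all wild type ones. The log2 fold change in Mx1-Cre was 2.15 ± 0.45 (edgeR adjusted p = 0.0352), and the call was lost in 5 other settings (adjusted p = 0.0768 to 0.159), each of them leaving out wild type 1, 2 or 3 or Mx1-Cre 1 or 3.

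Cdkn1c, which encodes p57, an inhibitor tied to stem cell quiescence, was at 10.4, 17.8 and 19.8 CPM in wild type, 5.71, 4.57 and 5.11 CPM in Mx1-Cre and 10.3 and 11.5 CPM in Vav-Cre libraries. It fell by 1.64 on the log2 scale (SE 0.27) in Mx1-Cre (edgeR adjusted p = 0.0151), below all wild type libraries. That call was lost without wild type 2, without wild type 3 or without Mx1-Cre 1 (adjusted p = 0.0612 to 0.0867). With both lines averaged it fell by 1.10 (SE 0.24, adjusted p = 0.0376), a call lost in 8 of 16 other settings (adjusted p = 0.0525 to 0.208), among them the fits without wild type 2 or 3, without Mx1-Cre 1 or 3 and without either Vav-Cre library.

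Cdkn2c, which encodes the INK4 inhibitor p18 of CDK4 and CDK6, was at 5.12, 5.38 and 5.51 CPM in wild type, 11.6, 7.65 and 12.2 CPM in Mx1-Cre and 11.2 and 19.8 CPM in Vav-Cre libraries, with no overlap. It rose with both lines averaged (log2 fold change 1.26 ± 0.26, edgeR adjusted p = 0.0347). The call was lost in 7 of 16 other settings (adjusted p = 0.0518 to 0.162), among them the fits without any 1 of the wild type libraries, without Mx1-Cre 1 or 3 and without Vav-Cre 2.

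The RB family and its E2F and DP partners (13 genes), the activators of the kinases (7) and the genes of cyclin turnover (11) had 0 called genes in any of the 4 comparisons with edgeR. In Mx1-Cre 9 of 13, 6 of 7 and 8 of 11 had a positive log2 fold change, with medians of 0.31, 0.18 and 0.16, and 4, 1 and 1 had an unadjusted p below 0.05 on the higher side, where 6.17% of all genes did. On the lower side 2, 0 and 0 did, beside 10.5% of all genes, the 2 being E2f5 (-0.94) and the RB gene Rb1 (-0.45). In Vav-Cre the medians were 0.05, 0.03 and 0.03. The genes of smallest p were E2f8 (Mx1-Cre log2 fold change 0.71 ± 0.18, adjusted p = 0.0749) and E2f2 (1.15 ± 0.31, adjusted p = 0.0912) among the E2F factors, both of which DESeq2 called (adjusted p = 0.00770 and 0.00772). E2f8 was called in 5 of 17 other settings, DESeq2 and the fits without either Vav-Cre library among them. E2f2 was called in 2 of 17, with DESeq2 and without Mx1-Cre 2 (edgeR adjusted p = 0.0361). They were Cdc25a, a phosphatase that activates CDK2 (0.38 ± 0.15, adjusted p = 0.242), and Cks1b, a cofactor of Skp2 (-0.46 ± 0.25 in Vav-Cre, adjusted p = 0.462, and 0.11 ± 0.22 in Mx1-Cre, adjusted p = 0.866), among the activators. In turnover they were Skp2, which marks CDK inhibitors for degradation (0.51 ± 0.18, adjusted p = 0.171), and Ambra1, the adaptor for D cyclin degradation (0.29 ± 0.15, adjusted p = 0.349).

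Downstream of the G1 kinases, the summed levels of the replication and mitotic genes were above those of all wild type libraries in all 3 Mx1-Cre libraries, with 0 called genes in any comparison with edgeR. The 18 replication genes had 18 positive log2 fold changes in Mx1-Cre with a median of 0.41, and 9 had an unadjusted p below 0.05, against a background of 6.17%. In Vav-Cre 4 of 18 were positive, with a median of -0.10. The 12 mitotic genes had 12 positive in Mx1-Cre (median 0.53) and 5 in Vav-Cre (median -0.07). The 5 tested later cyclins and Cdk1 had 5 positive in Mx1-Cre (median 0.62) and 0 in Vav-Cre (median -0.32). DESeq2 called 3 of the 18 replication and 2 of the 12 mitotic genes in Mx1-Cre, beside 1042 of all 14086 genes. It called none of either in Vav-Cre, beside 599 of all genes. With limma-trend 1 replication gene, Mcm7, was called in Mx1-Cre, beside 504 of all genes. Set directly against Mx1-Cre, Vav-Cre was lower for 18 of 18 replication genes (median -0.49, and -0.24 without Vav-Cre 2), of which 11 had an unadjusted p below 0.05, against a background of 5.96%.

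The Vav-Cre medians rested on the library left in. Without Vav-Cre 2 they were 0.16 for replication, 0.35 for mitosis and 0.14 for the later cyclins, and without Vav-Cre 1 they were -0.54, -0.59 and -0.99. The summed level of the replication genes was 4078, 4270 and 3975 CPM in wild type, 5566, 5434 and 5396 CPM in Mx1-Cre and 4541 and 2924 CPM in Vav-Cre libraries. That of the mitotic genes was 2142, 2101 and 2165 CPM, 3473, 2856 and 3471 CPM, and 2944 and 1445 CPM in the same order. Vav-Cre 2 thus combined the lowest summed replication and mitotic level and the lowest Ccne2 with the highest Cdk6 of the 8 libraries. The 8 G1 genes themselves summed to 1937, 1876 and 1812 CPM, 2010, 2185 and 2015 CPM, and 1818 and 1771 CPM, sums made up mostly of Ccnd2 and Cdk4.

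Among these genes, Mcm7, a subunit of the replicative helicase, had a log2 fold change of 0.53 ± 0.13 in Mx1-Cre (edgeR adjusted p = 0.0665) and Mcm2, of the same helicase, one of 0.47 ± 0.14 (adjusted p = 0.126). Top2a, the topoisomerase that untangles chromosomes, had 0.68 ± 0.22 (adjusted p = 0.145) and Mki67, the proliferation antigen, 0.70 ± 0.23 (adjusted p = 0.158). Cdk1, the mitotic kinase, had 0.63 ± 0.25 (adjusted p = 0.231) and Ccnf, an F-box cyclin, 0.62 ± 0.22 (adjusted p = 0.187). None passed with edgeR over all 8 libraries. Of 17 other settings, Mcm7 was called in 5, Top2a and Mki67 in 4 each and Ccnf in 3. Mcm2 was called in 1 of 17 and Cdk1 in 0. With Vav-Cre 1 or Vav-Cre 2 left out, which leaves the libraries compared as they were, Mcm7, Top2a, Mki67 and Ccnf passed in Mx1-Cre (adjusted p = 0.0167 to 0.0336), and DESeq2 called Mcm7, Mcm2, Top2a and Mki67 (adjusted p = 0.00297 to 0.0402).

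**Figure D5:**
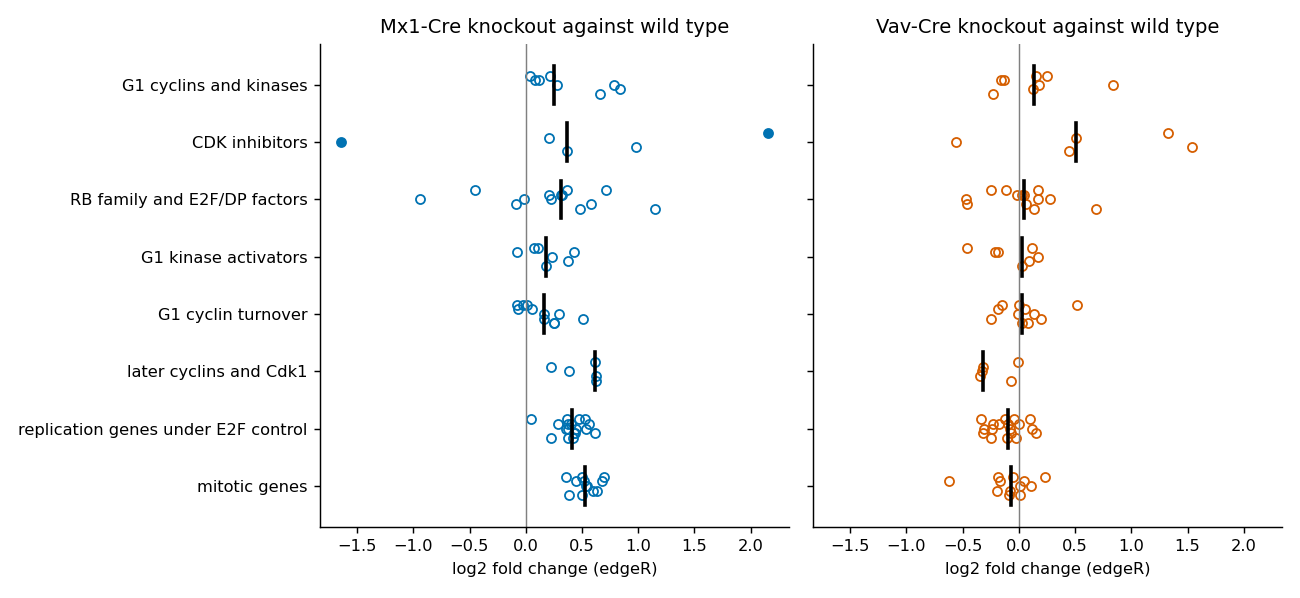
Log2 fold change against wild type of each tested gene in 8 gene lists, in Mx1-Cre and Vav-Cre knockout, with filled points for called genes and a black bar at each list's median. The replication and mitotic genes lie above 0 in Mx1-Cre and around 0 in Vav-Cre, and the called genes are the inhibitors Cdkn1a and Cdkn1c in Mx1-Cre.

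The replication genes were listed as genes under E2F control, so their matches to the E2F motif are no independent result. The motif was found in the promoters of 6 of 16 replication genes and 4 of 10 genes of the RB and E2F list. It was in 0 of 11 mitotic genes, beside 1.86% of all promoters. Among the later cyclins and Cdk1 it was in 1 of 5 promoters. The CDK inhibitors and the kinase activators had 1 of 6 each, and the turnover genes 1 of 10. These are letter matches in 250 bases, with no test.

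The libraries do not mark strand, and exons of 6 of the 8 genes overlap a gene on the opposite strand in GENCODE M21. Ccnd1 shares 1100 bases with LTO1, Ccnd2 372 bases and Cdk6 110 bases with an antisense transcript each, Ccnd3 361 bases with Bysl, Ccne2 609 bases with Ints8 and Cdk4 641 bases with Tspan31. Reads from these stretches cannot be told apart, and how the counting treated them is not given in the sources used here. Cdk2 and Ccne1 had no such overlap.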

How the data were processed

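RNA-seq covered 8 libraries of sorted mouse hematopoietic stem cells, made with the SMARTer Ultra Low Input and NEBNext kits without strand information, per the labels' protocols. TopHat, SAMtools, HTSeq and edgeR, with the mm9 genome, are named by the authors, per the submitters' processing notes. Versions, the annotation and how HTSeq treated strand are not stated in what was used here. The authors deposited raw counts, 1 row per gene symbol, and a second deposited table of CPM for 12457 genes, which equals the counts over the library total (relative difference 5.1e-15 or less). Libraries were grouped by their titles.

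The counts were tested here with edgeR 4.0.16 (R 4.3.3). The filter was filterByExpr with its default minimum count of 10 and total of 15, the scaling TMM, and the quasi-likelihood test was run in 1 model over 8 libraries with group as the only term. Adjusted p-values are Benjamini-Hochberg over the 14086 tested genes, called below 0.05. The contrasts were both lines averaged, Mx1-Cre or Vav-Cre against wild type, and the difference between the lines. The SE was derived from the log2 fold change and its F statistic. Log2 CPM used a prior count of 2. Likeness was taken over genes with mean log2 CPM of at least 3. Replicates of a group differed by far more than sampling noise (chi-square per degree of freedom 27.5 to 127). The test was run first on simulated counts.

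The 8 genes and all gene lists were chosen with earlier results of these data known. Named besides them were, per list, up to 4 called genes and the 2 of smallest p, and for each of the 8 the gene of most similar pattern. Hbb-b1, Hba-a1, Fcer1a, Mcpt8, E2f5, Rb1 and Rn45s are named outside this rule, with their values known. Alternatives were DESeq2 1.42.0, limma-trend (limma 3.58.1) on log2(CPM + 1), 3 other scalings, 2 other filters, a replicate block, fitting the compared groups alone, and each library left out.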

Additional observations from a re-analysis of the deposited data

Results flagged for a closer look

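Cdk4 did not pass the edgeR test in either knockout line, but its libraries lay on opposite sides of the wild type mean. All 3 Mx1-Cre libraries lay above the wild type mean of 601 CPM and both Vav-Cre libraries lay below it, although Mx1-Cre 1 and 2 and Vav-Cre 1 were within the wild type range of 548 to 646 CPM. The difference, Vav-Cre minus Mx1-Cre, was -0.27 ± 0.14 on the log2 scale (95% interval -0.59 to 0.045), and it did not pass the edgeR test (adjusted p = 0.448).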

How the results depend on the processing

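Of 890 refitted log2 fold changes for 53 results, 28 changed sign, and none of those was of a called gene. With single libraries left out, the values that crossed 0 with both lines averaged ranged from -0.092 (without Mx1-Cre 2) to 0.079 (without wild type 1) for Ccnd2, and between the fits without Vav-Cre 1 and without Vav-Cre 2 from -0.082 to 0.040 for Cdk4, from -0.16 to 0.46 for Ccne2 and from 0.32 to -0.092 for Ccnd1. In Mx1-Cre they ranged from -0.12 (without Mx1-Cre 3) to 0.22 (without Mx1-Cre 1) for Ccnd1, from -0.059 (without Mx1-Cre 2) to 0.20 (without Mx1-Cre 3) for Ccnd2 and from -0.045 (without Mx1-Cre 3) to 0.24 (without Mx1-Cre 2) for Cks1b. In Vav-Cre the fits without Vav-Cre 1 and without Vav-Cre 2 gave -0.25 and 0.42 for Ccne1, 0.60 and -0.22 for Ccnd1, and -0.99 and 0.26 for Ccne2. For Vav-Cre minus Mx1-Cre they gave 0.53 and -0.66 for Cdk6, 0.041 and -0.27 for Ccnd3, and 0.56 and -0.26 for Ccnd1, and Cdk2 ranged from -0.16 (without Mx1-Cre 2) to 0.030 (without Mx1-Cre 3). Other settings turned Ccnd1 in Mx1-Cre (-0.013 with upper quartile scaling, -0.042 with library totals, -0.0065 with the replicate block), Ccnd2 in Mx1-Cre (-0.0013 with library totals), and between the lines Cdk6 (-0.0077 with limma-trend) and Cdk2 (0.0076 with the replicate block). The number of the 8 genes called, 0 in each comparison, became 1 with DESeq2 for both lines averaged, and with single libraries left out it ranged from 0 to 1 for both lines averaged and for Vav-Cre minus Mx1-Cre. Over all tested genes, 373, 351, 72 and 24 were called with both lines averaged, in Mx1-Cre, in Vav-Cre and for Vav-Cre minus Mx1-Cre. DESeq2 called 953, 1042, 599 and 468, and limma-trend 154 in Vav-Cre. Without a filter 174 were called in Vav-Cre and 81 between the lines. A fit of only the groups compared called 575 in Mx1-Cre, 111 in Vav-Cre and 3 between the lines. With single libraries left out the counts ranged from 22 to 502, 58 to 565, 5 to 196 and 3 to 412. The lowest counts came without wild type 2 for the first 3 comparisons and without wild type 3 for the fourth. The cause of these shifts was not tested. The titles give replicate numbers but do not state whether these pair the samples. Deviations of same-numbered libraries from their group means correlated at -0.242 to 0.395, and those of differently numbered libraries at -0.541 to 0.542. Deviations within such small groups must balance, so these correlations cannot decide whether the numbers pair the samples. With the number as a block 218 genes were called with both lines averaged, 20 in Vav-Cre and 9 between the lines, 0 of the 8 genes among them. The average of both lines uses all groups, so no fit of only the groups compared was run for it. Ccne1 had 271 to 440 counts in wild type libraries, the lowest of the 8 genes there.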
